A study of Mus musculus with 12 samples.

Results

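Regulatory T cells (Tregs) are the CD4 T cells that restrain other T cells, and 9 genes that mark them were followed here through loss of TCF-1 and through allogeneic transplant. The genes were chosen by symbol: Foxp3, Ikzf2, Ikzf4, Gpr83, Izumo1r, Nrp1, Lrrc32, Itgae and Capg. They are 9 of the 35907 genes to which the transcripts of each library were summed. Earlier results of these same libraries led to the choice. Gpr83 was known as one of the larger falls before transplant, and the values that led to the others are not recorded. For that reason every value of the 9 genes below is a description, and no p-value is given for any of them.

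RNA was sequenced from 12 libraries of mouse T cells, 3 in each of 4 groups. The Pre-Tx groups are cells sorted from the spleens of untransplanted wild type (WT) mice and of TCF-7 cKO mice, called TCF-1 cKO here. TCF-1 is the protein of Tcf7, and in the cKO mice floxed Tcf7 alleles are removed by a Cre driven from the Cd4 promoter, which is active in the precursors of both CD4 and CD8 T cells. The Post-Tx groups are donor cells of both genotypes, carrying H2Kb, that were sorted at day 7 from the spleens of lethally irradiated BALB/c recipients. All recipients also received T cell-depleted bone marrow from WT mice. Donors were adult mice of the C57BL/6 background, with no age given for each sample. The sample labels call all 12 libraries CD4 T cells, whereas the study's own description of the design names CD8 cells before transplant, and CD4 and CD8 cells after it. The WT libraries are labelled wild type only and no Cre control was sequenced among these, so the deletion and the transgene cannot be told apart. The sample titles number the replicates as biological and the study describes several mice in each condition, without tying a library to an animal or recipient, and p-values measure the spread between these libraries.

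Foxp3 is the transcription factor that defines the Treg lineage, and it works with zinc finger factors of the Ikaros family, among them Helios (Ikzf2) and Eos (Ikzf4). Several surface proteins are more abundant on Tregs than on other resting CD4 T cells. Izumo1r encodes folate receptor 4, also called Juno, and Gpr83 encodes a G protein-coupled receptor. Nrp1 encodes neuropilin 1, a semaphorin and VEGF co-receptor found on thymus-derived Tregs of mice. Lrrc32 encodes GARP, which holds latent TGF-beta at the cell surface, and Itgae encodes CD103, the alpha chain that pairs with integrin beta 7 and binds E-cadherin. Capg encodes an actin-capping protein that is also abundant in myeloid cells.

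Gpr83 and Izumo1r lie next to each other on mouse chromosome 9. In the GENCODE annotation on GRCm38, Gpr83 spans 14860210 to 14870789 on the plus strand and Izumo1r spans 14885814 to 14903949 on the minus strand. The genes face each other end to end, 15024 bases apart, with no annotated gene between them. The submitters' notes name mm9 for their processing, so these positions are from the annotation and not from the deposited values. The promoters shown are those of this pair, whose genotypes did not overlap at either stage, and that of Foxp3, which holds a match to the motif searched. Nrp1 also did not overlap at either stage, and its promoter was searched but is not shown. TCF-1 binds the TCF/LEF motif, which was searched on both strands as CTTTGAA with its variant forms CTTTGAT, with the next form being CTTTGTA, and with the last form being CTTTGTT. The forkhead motif TGTTTAC was searched on both strands too, and the motif of the TATA box, TATAAA, on the strand of the gene. Each window is a RefSeq promoter of 300 bases on GRCm38.p6, from 250 before the start site, written in the direction of the gene, with every match in capitals.
Gpr83, chr9:14859960-14860259, plus strand: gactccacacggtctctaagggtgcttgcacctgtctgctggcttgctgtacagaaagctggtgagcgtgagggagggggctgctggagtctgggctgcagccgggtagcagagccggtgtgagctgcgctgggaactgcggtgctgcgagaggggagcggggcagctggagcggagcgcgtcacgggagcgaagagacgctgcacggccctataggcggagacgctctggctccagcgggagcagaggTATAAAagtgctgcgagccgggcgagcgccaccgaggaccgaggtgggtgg
Izumo1r, chr9:14903718-14904017, minus strand: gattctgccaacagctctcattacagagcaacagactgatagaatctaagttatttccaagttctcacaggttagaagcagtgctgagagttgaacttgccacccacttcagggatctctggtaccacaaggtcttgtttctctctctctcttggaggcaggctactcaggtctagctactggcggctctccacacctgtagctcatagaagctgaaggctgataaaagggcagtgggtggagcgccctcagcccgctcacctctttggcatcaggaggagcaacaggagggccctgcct
Foxp3, chrX:7579426-7579725, plus strand: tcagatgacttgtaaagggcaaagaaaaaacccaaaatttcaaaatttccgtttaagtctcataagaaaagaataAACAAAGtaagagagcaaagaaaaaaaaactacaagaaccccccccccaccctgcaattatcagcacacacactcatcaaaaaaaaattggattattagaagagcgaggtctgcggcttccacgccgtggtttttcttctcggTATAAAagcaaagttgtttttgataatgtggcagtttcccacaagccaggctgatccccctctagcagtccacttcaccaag
The Gpr83 and Izumo1r windows held none of the TCF/LEF letters, which 16.9% of 32851 promoters of the same length hold. The Foxp3 window held AACAAAG, the reverse complement of CTTTGTT, starting 175 bases before the start site. TATAAA stood in the Gpr83 window (8.32% of all promoters hold it) from the base just before the annotated start, and in the Foxp3 window from 32 bases before the start. None of the 3 windows held TGTTTAC, which 3.65% of promoters hold. The promoters of Capg and Nrp1 and a second Foxp3 promoter were searched too and held none of these motifs.

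The libraries held 17103415 to 49486745 estimated counts, the deepest being the WT Post-Tx libraries (27109156 to 49486745). Levels below are counts scaled to a common library size, with TMM factors (normalized CPM), which allows comparison of 1 gene between libraries. Tcf7 was detected in every library, at 148 to 193 normalized CPM in TCF-1 cKO and 124 to 206 in WT before transplant, and at 91.4 to 113 and 155 to 182 after it. Counts over whole transcripts do not show the loss of a floxed stretch, so they do not check the label. Pre-Tx libraries held large amounts of B cell RNA: 10 B cell markers summed to 10049 to 11006 normalized CPM in TCF-1 cKO and 8333 to 10179 in WT, against 45.2 to 82.8 in all Post-Tx libraries. In the Pre-Tx libraries Cd8a and Cd8b1 together (318 to 565) also exceeded Cd4 and Zbtb7b together (86.1 to 207), while the Post-Tx libraries carried 567 to 1387 of the CD4 pair and 22.2 to 48.3 of the CD8 pair. The sum of 12 T cell markers was lower in TCF-1 cKO at both stages, 1754 to 2198 against 2995 to 3797 before transplant and 4231 to 4821 against 6613 to 9592 after it. Throughout, fewer cells of a type and less RNA per cell cannot be told apart in such bulk samples.

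**Figure D1:**
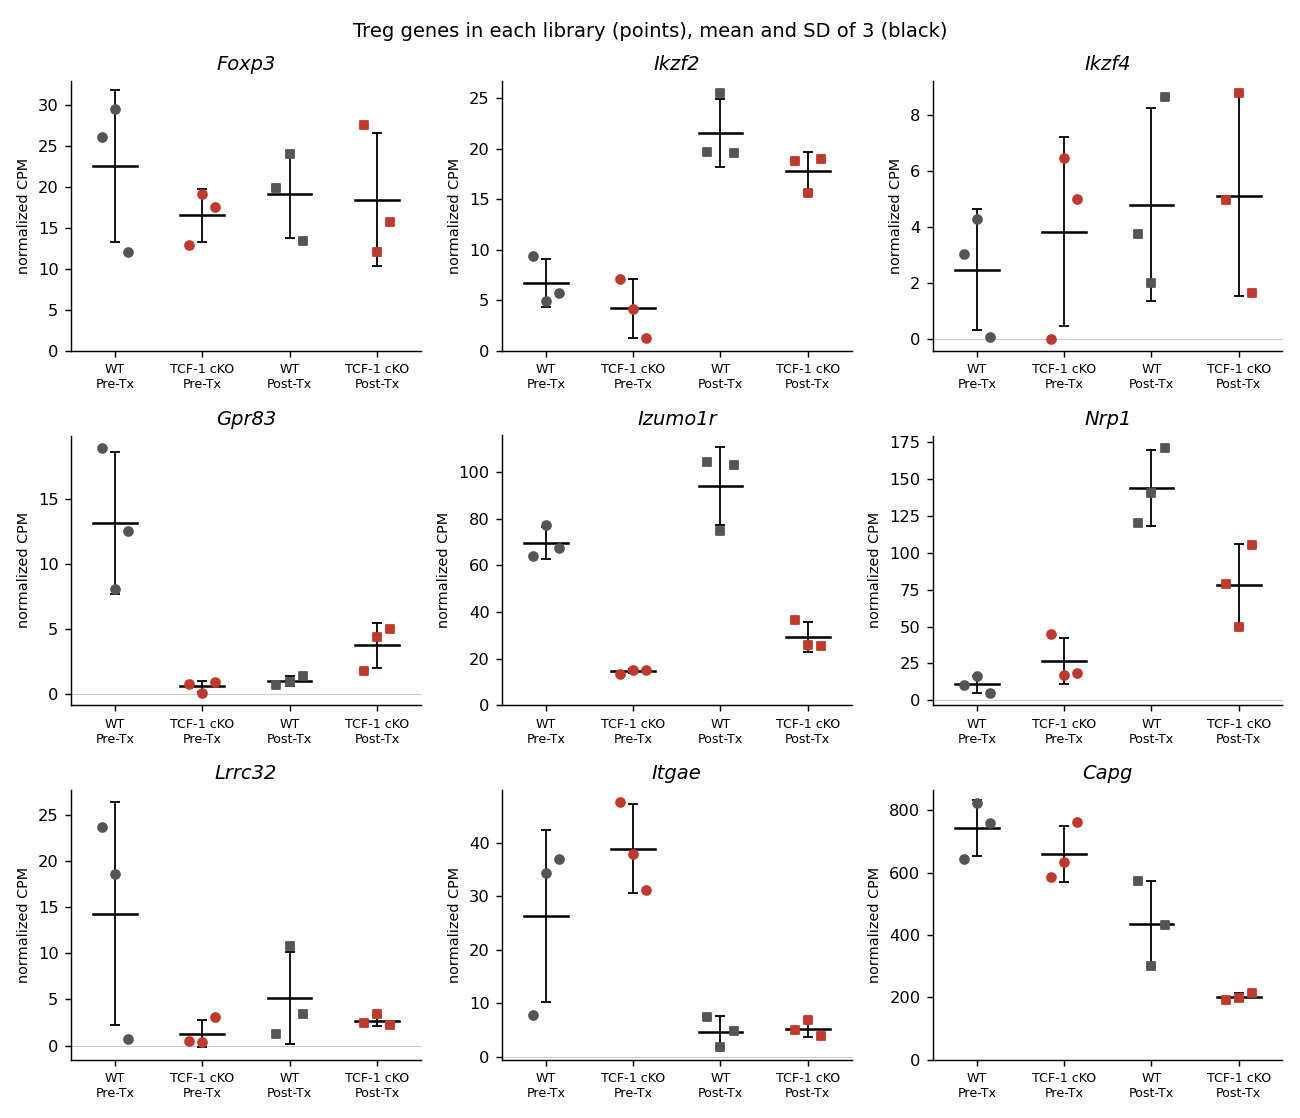
Level of each of the 9 Treg genes in normalized CPM (y axis, from 0) in the 4 groups (x axis). Each point is 1 library, circles before and squares after transplant, WT grey and TCF-1 cKO red, and black bars are the mean and SD of 3. Izumo1r is lower in TCF-1 cKO at both stages (13.6 to 15.2 against 64.0 to 77.5, then 25.3 to 36.5 against 74.9 to 104), and Gpr83 is highest in WT before transplant (8.07 to 19.0).

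Foxp3 itself showed no separation by genotype. Before transplant its level was 12.9, 19.1 and 17.5 normalized CPM in TCF-1 cKO, against 26.1, 29.5 and 12.03 in WT. At day 7 the values were 27.5, 12.1 and 15.6 in TCF-1 cKO and 19.9, 23.9 and 13.3 in WT. The ranges of the groups overlapped at both stages. The log2 fold change of TCF-1 cKO against WT from edgeR was -0.47 ± 0.41 (SE, n = 3 libraries per group) before transplant and -0.06 ± 0.39 after it. From Pre-Tx to Post-Tx, Foxp3 differed by -0.25 in WT and by 0.16 in TCF-1 cKO on the log2 scale. Over 20 alternative settings of the fit these ran from -1.75 to 0.22 and from -1.44 to 0.59. The number of estimated counts behind these levels was 196 to 903 per library.

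Among the Ikaros family members, Ikzf2 (Helios, which stabilises the Treg state) stood at 7.14, 4.15 and 1.29 normalized CPM in TCF-1 cKO and 9.36, 4.95 and 5.76 in WT before transplant, and the groups overlapped. After transplant it was 18.7, 15.6 and 19.0 in TCF-1 cKO and 19.7, 25.5 and 19.5 in WT. Those ranges were adjacent without overlap, with a log2 fold change of -0.28 ± 0.33. In TPM, which also accounts for transcript length, the order was the other way round, 5.67 ± 0.0622 (SD, n = 3) in TCF-1 cKO and 3.22 ± 0.530 in WT. The share of Ikzf2 counts on its leading transcript differed between those groups as well, at 79.0% to 86.0% in TCF-1 cKO and 92.5% to 96.7% in WT, and its part in the difference between the scales was not tested. In normalized CPM both genotypes carried more Ikzf2 after transplant than before it, and no library overlapped. The log2 fold changes were 1.68 in WT and 2.09 in TCF-1 cKO. Over 20 alternative settings they ran from 0.16 to 2.19 and from 0.42 to 2.69. Per 1000 counts of Cd3d, Cd3e and Cd3g the stages overlapped in WT, 5.87 to 12.7 before and 7.14 to 13.6 after transplant. In TCF-1 cKO they overlapped too (2.57 to 18.2, then 13.0 to 14.3). Per 1000 Cd4 counts WT was lower after transplant (28.6 to 101, then 14.7 to 25.6). TCF-1 cKO overlapped there (12.7 to 82.2, then 27.3 to 28.9).

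Ikzf4 (Eos, a corepressor partner of Foxp3) varied widely between libraries of a group. Its level before transplant was 0, 6.48 and 5.02 normalized CPM in TCF-1 cKO and 3.04, 4.29 and 0.0713 in WT. The count of 0 in TCF-1 cKO replicate 1 allows a level of up to 0.157 normalized CPM (3 counts, for counting error only). After transplant it was 4.97, 8.79 and 1.63 in TCF-1 cKO and 3.76, 1.99 and 8.66 in WT. All groups overlapped, and the errors of the fold changes (0.62 ± 1.404 before and 0.12 ± 0.69 after transplant) were larger than the changes themselves.

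Izumo1r was the member whose groups lay apart in the same direction at both stages. Before transplant its level was 13.6, 15.0045 and 15.2 normalized CPM in TCF-1 cKO against 64.0, 77.5 and 67.4 in WT. After transplant it was 36.5, 25.9 and 25.3 in TCF-1 cKO against 104, 74.9 and 103 in WT. Every TCF-1 cKO library lay below every WT library at either stage. The log2 fold change was -2.30 ± 0.28 before and -1.68 ± 0.26 after transplant. In order of their means the groups were TCF-1 cKO Pre-Tx (14.6 ± 0.880, SD), TCF-1 cKO Post-Tx (29.2 ± 6.30), WT Pre-Tx (69.6 ± 6.99) and WT Post-Tx (94.1 ± 16.7). Only the WT groups overlapped among these neighbours. The counts behind them were 260 to 4739 per library. The direction held under all 15 alternative settings at each stage, among them scaling to the CD3 genes, which gave -1.35 before and -0.80 after transplant.

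Gpr83 was highest in WT cells before transplant and lowest in TCF-1 cKO cells of the same stage. Before transplant its level was 0.733, 0.0424 and 0.890 normalized CPM in TCF-1 cKO, from 14, 1 and 18 counts, against 19.0, 8.07 and 12.6 in WT, from 310, 138 and 204 counts. After transplant it was 1.77, 4.40 and 4.98 in TCF-1 cKO (38, 133 and 120 counts) against 0.682, 0.874 and 1.39 in WT (31, 26 and 49 counts). WT was thus the higher group before transplant and TCF-1 cKO the higher group after it, with no overlap at either stage. The log2 fold change was -4.63 ± 0.90 before and 1.94 ± 0.78 after transplant. Leaving out WT Pre-Tx replicate 1, its highest library, gave -4.26 with Gpr83 no longer among the genes called. Within WT, Gpr83 was lower after transplant by -3.74 ± 0.82 on the log2 scale, and within TCF-1 cKO it was higher by 2.75 ± 0.81.

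The summed level of the olfactory receptor genes, which serve smell in the nasal epithelium, moved with Gpr83. It was 2910 to 7323 normalized CPM in WT and 1038 to 1687 in TCF-1 cKO before transplant, and 1246 to 2848 in WT and 3757 to 9156 in TCF-1 cKO after it. The groups were therefore separated in the same direction as for Gpr83 at both stages. Among the 12 libraries, WT Pre-Tx replicate 1 held the highest Gpr83 level and TCF-1 cKO Post-Tx replicate 2 the highest olfactory receptor sum. The part of whatever gives rise to these reads in the Gpr83 values was not tested.

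**Figure D2:**
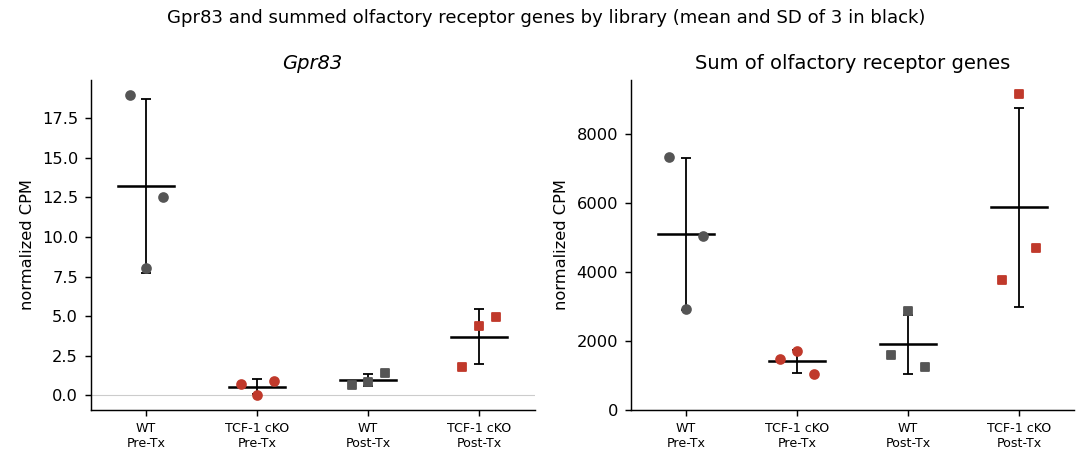
Left, Gpr83 in normalized CPM by group, and right, the summed normalized CPM of all olfactory receptor genes, with axes from 0. Points are libraries and black bars the mean and SD of 3. Both are higher in WT than in TCF-1 cKO before transplant and lower in WT after it (0.682 to 1.39 against 1.77 to 4.98 for Gpr83, 1246 to 2848 against 3757 to 9156 for the sum).

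Nrp1 had the largest increase of the 9 members with transplant in WT. Its level before transplant was 44.8, 16.9 and 18.8 normalized CPM in TCF-1 cKO and 10.6, 16.7 and 4.98 in WT. The Post-Tx values were 79.0, 49.7 and 105 in TCF-1 cKO and 120, 141 and 171 in WT. TCF-1 cKO thus lay above WT before transplant, by a narrow margin, and below it after transplant, and neither stage overlapped. The genotype difference was 1.33 ± 0.54 before and -0.86 ± 0.27 after transplant on the log2 scale. The increase with transplant was 3.74 ± 0.46 in WT and 1.54 ± 0.42 in TCF-1 cKO. Macrophages and dendritic cells express Nrp1 as well. Macrophage and monocyte markers summed to 3842 to 5196 normalized CPM in WT and 4207 to 5567 in TCF-1 cKO before transplant. After it they summed to 1461 to 2638 in WT and 2019 to 2581 in TCF-1 cKO. Of these 13 markers 3 were called higher and 0 lower in TCF-1 cKO before transplant, and 0 in either direction after it. The part of these cells in the Nrp1 values was not tested.

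Lrrc32, the TGF-beta docking receptor, was detected unevenly. It stood at 0.534, 0.354 and 3.05 normalized CPM in TCF-1 cKO and 23.6, 18.6 and 0.670 in WT before transplant. After transplant it stood at 2.46, 3.40 and 2.26 in TCF-1 cKO and 1.28, 10.8 and 3.41 in WT. WT Pre-Tx replicate 3 fell among the TCF-1 cKO libraries, so the groups overlapped at both stages. The log2 fold changes were -3.49 ± 1.12 and -0.95 ± 0.74. Platelets and endothelial cells also carry GARP, and their 9 markers summed to 242 to 317 normalized CPM in TCF-1 cKO and 127 to 225 in WT before transplant. Pecam1 carried most of that sum, with a mean of 227 in TCF-1 cKO and 127 in WT. Of the 9 markers 4 lay lower in TCF-1 cKO without overlap, all of them endothelial and at low levels. They were Cdh5 (0.595 against 2.61), Kdr (2.10 against 5.47), Tek (0.135 against 2.56) and Emcn (0.0679 against 1.07). Emcn in TCF-1 cKO lay below the level of 3 counts (0.127 to 0.157 normalized CPM). Pecam1 and the platelet marker Ppbp lay higher without overlap, and the other 3 overlapped. After transplant the means of Cdh5, Kdr, Tek and Emcn were higher in TCF-1 cKO. The mean of Lrrc32 was lower there in normalized CPM (2.71 against 5.16) and higher in TPM (3.08 against 1.54). The part of platelets and endothelial cells in the Lrrc32 values was not tested.

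Itgae (CD103) was lower after transplant in both genotypes. Its level was 47.6, 38.0 and 31.1 normalized CPM in TCF-1 cKO and 7.84, 34.3 and 37.0 in WT before transplant. After transplant it was 4.90, 6.88 and 3.90 in TCF-1 cKO and 7.505, 1.71 and 4.86 in WT. The genotypes overlapped at each stage, whereas the stages did not overlap within either genotype. The change with transplant was -2.49 ± 0.57 in WT and -2.89 ± 0.58 in TCF-1 cKO on the log2 scale. CD103 is also found on CD8 T cells and on some dendritic cells. The CD8 pair stood at 318 to 565 before transplant and at 22.2 to 48.3 after it. The 8 dendritic cell markers summed to 212 to 267 before transplant and 178 to 218 after it. The part of these cells in the Itgae values was not tested. Much of the Itgae signal lay on a retained-intron transcript, 7.67% to 18.8% of its counts in TCF-1 cKO Pre-Tx libraries, 23.5% to 77.7% in WT Pre-Tx libraries and 25.8% to 83.8% in the Post-Tx libraries.

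Capg was the most abundant member by far. It stood at 586, 633 and 762 normalized CPM in TCF-1 cKO and 645, 824 and 760 in WT before transplant, and these groups overlapped. After transplant it stood at 192, 198 and 215 in TCF-1 cKO and 574, 301 and 432 in WT, without overlap. The log2 fold change was -0.23 ± 0.19 before and -1.11 ± 0.25 after transplant. Both genotypes carried less after transplant than before it, by -0.77 ± 0.23 in WT and -1.71 ± 0.23 in TCF-1 cKO. Macrophages express Capg strongly. Their markers summed to 4207 to 5567 normalized CPM in TCF-1 cKO and 3842 to 5196 in WT before transplant. After it the sum was lower, at 2019 to 2581 and 1461 to 2638, where the genotypes overlapped. Lyz2 fell most in level, from a mean of 2052 to 303 in TCF-1 cKO and 2905 to 216 in WT. Of the 13 markers, 4 were called lower and 0 higher with transplant in TCF-1 cKO. In WT 3 were called lower and 2 higher. The part of these cells in the Capg values was not tested.

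**Figure D3:**
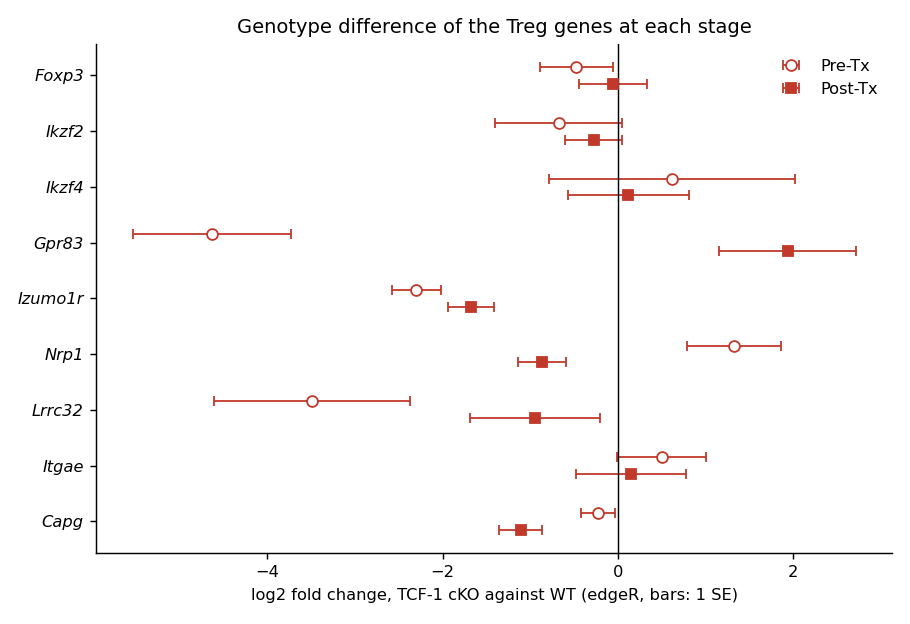
Log2 fold change of TCF-1 cKO against WT (x axis) for each of the 9 Treg genes (y axis) from edgeR, open circles before and filled squares after transplant, with bars of 1 SE. Izumo1r lies below 0 at both stages (-2.30 and -1.68), while Gpr83 (-4.63 and 1.94) and Nrp1 (1.33 and -0.86) lie on opposite sides.

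Counted over the whole table, 2 of the 9 members (Gpr83 and Izumo1r) passed an adjusted p under 0.05 as lower in TCF-1 cKO before transplant, and 0 as higher. Of all 17021 genes tested 14.2% passed, 5.65% lower and 8.52% higher. After transplant 2 of the 9 (Izumo1r and Capg) were lower and 0 higher, beside 3.13% and 3.52% of 19287 genes (6.65% in either direction). Groups did not overlap for 3 members before transplant (Nrp1 higher, Gpr83 and Izumo1r lower) and for 5 after it (Gpr83 higher, Ikzf2, Izumo1r, Nrp1 and Capg lower). Of all genes, 41.2% did not overlap before transplant (21.4% higher and 19.8% lower) and 39.7% after it (22.8% higher and 16.9% lower). The median log2 fold change of the members was -0.47 before and -0.28 after transplant, against -0.11 and 0.09 over all genes. At an unadjusted p under 0.05 in edgeR, 1 member was higher and 3 were lower at each stage. DESeq2 with adjustment called 0 higher and 3 lower before transplant, and 1 higher and 3 lower after it. The share of all genes is not given for either of these. Since the members were chosen with such values known, nothing is read from these counts. Leaving out WT Pre-Tx replicate 1 left 1 member called before transplant, and leaving out TCF-1 cKO Post-Tx replicate 2 left 0 called after it. In those fits only 14 and 6 genes of the whole table were called.

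From Pre-Tx to Post-Tx in WT, 2 members were higher (Ikzf2 and Nrp1) and 3 lower (Gpr83, Itgae and Capg) at an adjusted p under 0.05, beside 11.6% and 10.4% of all 21434 genes (22% in either direction). The same 5 members did not overlap between the stages, beside 18.1% higher and 20.9% lower of all genes, 39% together. In TCF-1 cKO, 4 were higher (Ikzf2, Gpr83, Izumo1r and Nrp1) and 2 lower (Itgae and Capg), beside 14.2% and 12.5% (26.7% in either direction). Stages did not overlap for 4 members higher and 2 lower there, beside 30.2% and 20.1% of all genes, 50.3% together. The log2 change of Izumo1r in TCF-1 cKO was 1.00 ± 0.26, and that of Nrp1 1.54. Scaling to the CD3 genes, which moved the median of all genes in that comparison from 0.36 to -1.21, placed them at -0.58 and -0.11, still above that median. The stage comparison cannot be told apart from the different sort, the host environment and the B cell RNA of the Pre-Tx libraries. The difference between the genotype effects after and before transplant was largest for Gpr83 (6.49 ± 1.15 on the log2 scale), followed in size among the called members by Nrp1 (-2.20 ± 0.60) and Capg (-0.94 ± 0.32). These are the 3 members called, 1 higher and 2 lower, beside 17.1% and 11.5% of all genes (28.6% in either direction). For Izumo1r it was 0.57 ± 0.36.

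Relative to the summed counts of Cd3d, Cd3e and Cd3g in the same library, the picture changed for some members and not for others. This sum was used as a measure of T cell RNA, which it was not shown to follow. Izumo1r stood at 30.2 to 35.6 counts per 1000 CD3 counts in TCF-1 cKO against 77.4 to 91.8 in WT before transplant, and at 19.1 to 26.5 against 37.8 to 39.9 after it. It therefore stayed lower in all TCF-1 cKO libraries on this scale. Gpr83 kept its order too, at 0.101 to 1.87 against 9.57 to 25.7 before transplant and 1.29 to 3.76 against 0.247 to 0.534 after it. Nrp1 stood at 37.3 to 115 in TCF-1 cKO against 5.72 to 19.8 in WT before transplant, whereas after it the groups overlapped (41.5 to 79.5 against 43.6 to 74.9). Capg, by contrast, stood at 1499 to 1512 in TCF-1 cKO and 872 to 976 in WT before transplant, above WT in every library, and at 139 to 165 and 160 to 208 after it, where the groups overlapped. Itgae was above WT at both stages, at 61.8 to 122 against 10.6 to 42.4 and at 2.94 to 5.74 against 0.913 to 2.72. Foxp3 overlapped at both stages, with 33.0 to 45.3 against 13.8 to 35.3 and 10.1 to 19.9 against 5.12 to 12.7, as did Ikzf2, Ikzf4 and Lrrc32. The CD3 genes were themselves lower in TCF-1 cKO in normalized CPM, so this scale raises the values of TCF-1 cKO libraries relative to those of WT. Before transplant their fold was uneven, 0.44 for Cd3d, 0.42 for Cd3e and 0.86 for Cd3g. Of 12 T cell markers 6 were then called lower and 0 higher, with Cd2 at 1.05. Per 1000 Cd4 counts Itgae overlapped at both stages (305 to 548 against 84.3 to 487, then 5.88 to 12.8 against 1.72 to 6.07). Capg before transplant overlapped there too (6750 to 8889 against 4749 to 10017), and Izumo1r and Gpr83 kept their order.

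**Figure D4:**
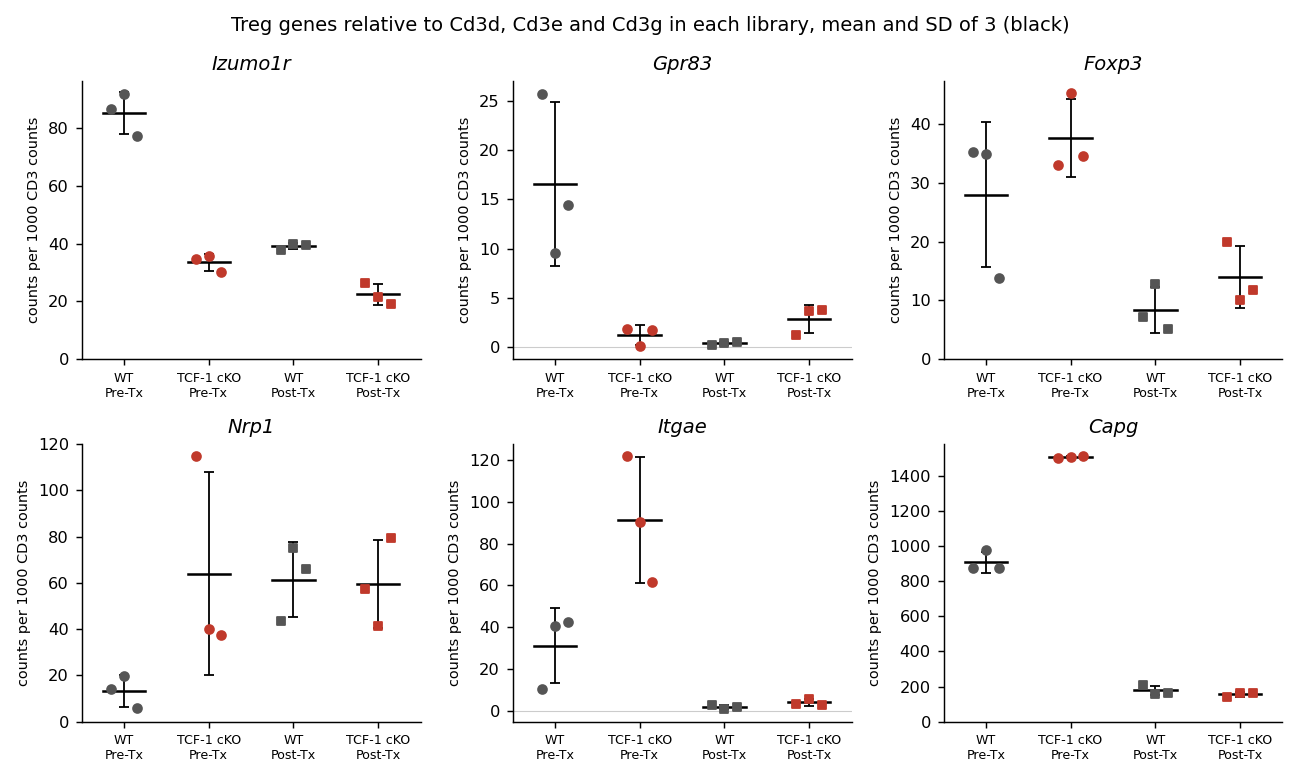
Estimated counts of 6 Treg genes per 1000 counts of Cd3d, Cd3e and Cd3g (y axis, from 0) in the 4 groups, points for libraries and black bars for the mean and SD of 3. On this scale Izumo1r stays lower in TCF-1 cKO (30.2 to 35.6 against 77.4 to 91.8 before transplant), whereas Capg is higher there before transplant (1499 to 1512 against 872 to 976).

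Compared per length, in TPM, the members ranged widely in WT cells before transplant. Capg was at 597 ± 74.1 TPM (SD, n = 3), Izumo1r at 58.2 ± 8.47, Foxp3 at 7.63 ± 3.55, Itgae at 5.67 ± 3.38 and Gpr83 at 3.51 ± 1.61. Lrrc32 (3.09 ± 2.64), Nrp1 (2.72 ± 1.41), Ikzf2 (0.951 ± 0.169) and Ikzf4 (0.522 ± 0.513) were the least abundant. The first 2 were separated from each other and from the rest by more than their spread, and the neighbours from Foxp3 down to Nrp1 were not. In TCF-1 cKO cells before transplant Izumo1r was at 14.3 ± 0.564 TPM and Gpr83 at 0.166 ± 0.133. The leading transcript carried 91.5% of the Izumo1r counts over the 12 libraries, 91.2% of those of Nrp1 and 88.3% of those of Ikzf2 summed over libraries, while in single libraries it fell to 54.6% for Ikzf2 and 60.5% for Nrp1. Foxp3 was spread over more, with 50.9% on its leading transcript.

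Genes whose log2 levels ran most like those of the members over the 12 libraries were sought among 9060 genes with a mean of at least 10 CPM. For Izumo1r these were Hcst (the signalling adaptor DAP10, Pearson r = 0.98), Hid1 (0.97), Uqcc2 (0.94), Sit1 (a T cell transmembrane adaptor, 0.93) and Aes (0.93). For Gpr83 they were Tmem72 (0.92), Mib1 (0.88), Ntrk3 (0.87), Brpf3 (0.85) and the olfactory receptor gene Olfr648 (0.84). For Foxp3 the likeness was weaker, led by Scly (0.76), Pgap3 (0.74), LTO1 (0.72), Ly6c1 (0.72) and Rai1 (0.71). These libraries share groups and depth, so the values describe likeness only.

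Other genes of Treg biology were read from 57 genes in 4 lists: surface receptors, suppressive and secreted products, transcriptional regulators with partners of Foxp3, and partners or ligands of the members. The lists too were chosen with earlier results of these libraries known, so their p-values describe single genes in the test over all genes and are not independent evidence. Before transplant 52 passed the filter on low counts, of which 8 were higher and 1 was lower in TCF-1 cKO (edgeR quasi-likelihood test, Benjamini-Hochberg over all genes), beside 8.52% and 5.65% of all genes. Their median log2 fold change was 0.30, against -0.11 over all genes. Fgl2, a secreted suppressive ligand, was at 59.6, 44.8 and 41.6 normalized CPM in TCF-1 cKO and 9.92, 12.2 and 5.78 in WT (log2 fold change 2.37 ± 0.38, edgeR adjusted p = 0.0079). Irf4, a transcription factor of effector Tregs and of B cells, was at 97.9, 104 and 87.4 against 33.4, 44.8 and 21.4 (1.52 ± 0.29, edgeR adjusted p = 0.013). Both were above WT in all 3 libraries.

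The remaining calls before transplant were smaller or rested on lower levels. Among surface receptors Nt5e (CD73, which makes adenosine) rose by 1.92 ± 0.54 and Cd83 by 0.76 ± 0.22, and Il12a, a subunit of IL-35, rose by 1.66 ± 0.48. The Ikaros family genes Ikzf1 and Ikzf3 rose by 0.83 ± 0.22 and 0.89 ± 0.23. Nrp2, the relative of Nrp1, rose by 1.76 ± 0.45, and Itgb7, the partner chain of CD103, fell by 0.82 ± 0.21 (edgeR adjusted p = 0.028 and 0.030). Of the 16 surface receptors 2 rose and 0 fell, of the 9 products 2 rose and 0 fell, of the 20 regulators 3 rose and 0 fell, and of the 12 partners 1 rose and 1 fell. B cells express Cd83, Irf4 and Ikzf3 as well, and in the same comparison 4 of 10 B cell markers rose, 0 fell, and 6 of 12 T cell markers fell. Of 13 macrophage and monocyte markers 3 rose (Mrc1 by 2.93, Vcam1 by 1.86 and Ctss by 0.88) and 0 fell. Of 6 NK cell markers 2 rose (Ncr1 by 2.14 and Klrb1c by 1.12) and 0 fell, and the NK cell sum was 191 to 243 normalized CPM in TCF-1 cKO against 62.4 to 112 in WT. The part of these cell types in the differences was not tested. Leaving out WT Pre-Tx replicate 1 left 0 of the 57 called, by edgeR, with DESeq2 on all libraries calling 13. The share of all genes that DESeq2 called is not given beside that count.

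After transplant the lists lay on the other side of 0. Of 54 genes tested 9 fell in TCF-1 cKO and 0 rose (edgeR), beside 3.13% and 3.52% of all genes, and the median log2 fold change was -0.52 against 0.09 over all genes. Tigit, an inhibitory receptor, was at 77.7, 85.3 and 93.8 normalized CPM in TCF-1 cKO and 199, 201 and 238 in WT (-1.30 ± 0.22, edgeR adjusted p = 0.011). Ctla4, the inhibitory receptor that takes up CD80 and CD86, was at 29.4, 36.4 and 46.2 against 72.0, 89.5 and 106 (-1.24 ± 0.26, edgeR adjusted p = 0.021). Icos, a co-stimulatory receptor, fell by 1.12 ± 0.28 and Tnfrsf4 (OX40) by 0.88 ± 0.25, with edgeR adjusted p = 0.031 and 0.044. Ikzf3 fell by 1.23 ± 0.25, Batf by 0.98 ± 0.23 and Stat5a by 0.80 ± 0.23. By list, 5 of 16 surface receptors, 0 of 9 products, 3 of 20 regulators and 1 of 12 partners (Itgb7, by 0.82 ± 0.23) fell.

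These falls went along with lower T cell markers, since 10 of 12 T cell markers also fell in TCF-1 cKO after transplant. Per 1000 CD3 counts Tigit remained lower, at 56.4 to 71.2 against 72.0 to 107, whereas Ctla4 (21.4 to 34.9 against 26.1 to 47.7), Icos (116 to 193 against 99.0 to 257) and Tnfrsf4 (192 to 281 against 198 to 252) overlapped. Scaled to the CD3 genes, 0 of the 57 genes fell and 7 rose, but that scaling raises every gene of TCF-1 cKO, moving the median of all genes from 0.09 to 0.95. At an unadjusted p under 0.05 in edgeR 22 were lower and 2 higher. Without TCF-1 cKO Post-Tx replicate 2 the adjusted count was 0, and 1 fit of all 12 libraries called 2. The fit with DESeq2 called 18 lower and 1 higher. For the unadjusted and DESeq2 counts the share of all genes is not given, so they cannot be set against it.

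**Figure D5:**
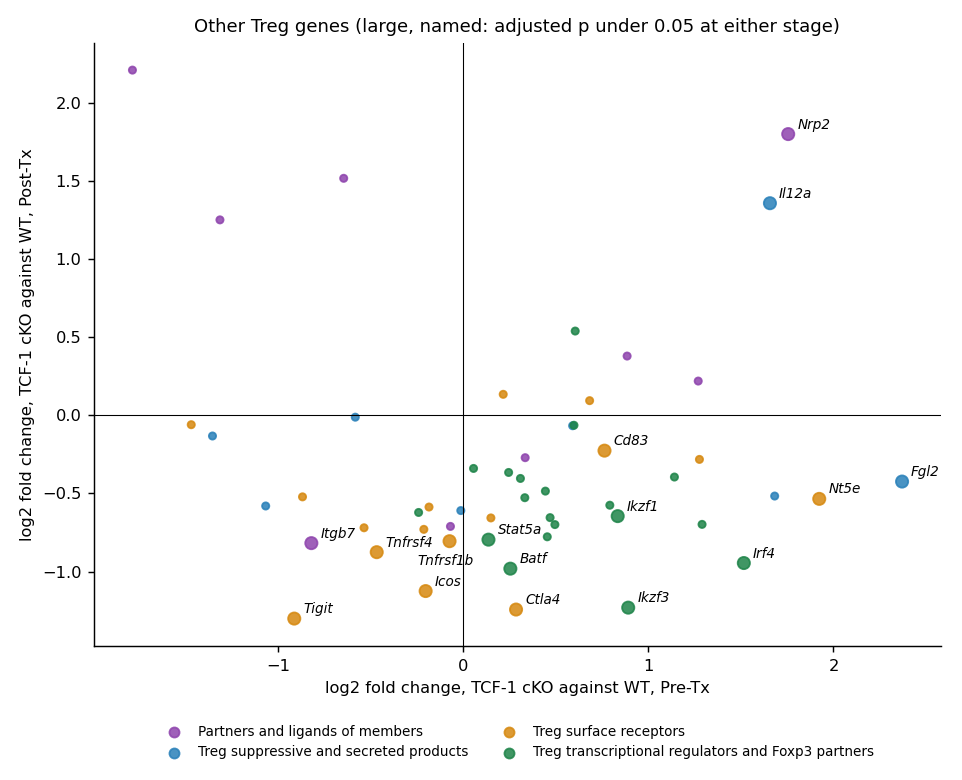
Log2 fold change of TCF-1 cKO against WT before transplant (x axis) and after it (y axis) for the 52 other Treg genes tested at both stages, coloured by list. Large named points passed an adjusted p under 0.05 at either stage. Fgl2 and Irf4 lie to the right (2.37 and 1.52 before transplant), with Nt5e and Nrp2 among the genes between them. Tigit and Ctla4 lie at the bottom (-1.30 and -1.24 after transplant).

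The difference between the genotype effects of the stages was tested as an interaction. In that test 10 of 20 regulators were lower and 0 higher, with a median of -1.10 against 0.37 over all genes. Among them were Ikzf3 (-2.18 ± 0.34, edgeR adjusted p = 0.0017), Irf4 (-2.49 ± 0.46, edgeR adjusted p = 0.0029), Ikzf1 (-1.52 ± 0.32) and Batf (-1.30 ± 0.33). Of all 57 genes, 55 were tested, and 13 were lower and 2 higher, beside 11.5% and 17.1% of all genes. With transplant in WT, 30 of these 55 genes rose and 5 fell, and in TCF-1 cKO 18 rose and 8 fell, beside 11.6% higher and 10.4% lower of all genes in WT and 14.2% and 12.5% in TCF-1 cKO. In the same comparisons 12 and 11 of 12 T cell markers rose, and all 10 B cell markers fell in both. Among surface receptors 13 of 16 rose in WT and 11 of 16 in TCF-1 cKO, with Tigit at 4.61 ± 0.32 and 4.19 ± 0.31 and Tnfrsf4 at 3.97 ± 0.33 and 3.53 ± 0.32 on the log2 scale. For Foxp3 the same stages overlapped in both genotypes. These interaction and transplant counts were not refitted under other settings.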

How the data were processed

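RNA was measured in 12 libraries, 3 in each of 4 groups of genotype and transplant stage, grouped by their titles. Per the labels, cDNA was made with the SMARTseq HT kit and libraries with Nextera XT. The authors sequenced paired ends and quantified transcripts with kallisto 0.46.2. The deposited estimated counts are the read pairs assigned to each transcript, with no filter or normalization, and the deposited TPM are kallisto's own values. The submitters' notes name mm9, and which transcript release served is not stated in the sources used here. Such counts cannot show the loss of part of a transcript, and reads shared by near-identical genes are divided by estimation.

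Transcripts were matched by identifier to GENCODE M21 (116428 of 117497) and summed over 35907 genes. The unmatched held 0.282% to 0.386% of the counts and were left out. Counts were rounded, filtered with filterByExpr, scaled by TMM and tested with the quasi-likelihood test of edgeR 4.0.16 in R 4.3.3, with Benjamini-Hochberg adjustment over all genes tested and a threshold of 0.05. Genotype was tested in the 6 libraries of each stage, and transplant and the interaction in all 12. SE is the fold change over the square root of F. Group levels are mean and SD. TPM was used to compare genes, and for limma 3.58.1 on log2(TPM + 1). Other settings were RLE, upper-quartile and CD3 scaling, no filter, DESeq2 1.42.0, voom, a replicate block, 1 fit of all libraries and leaving out each library. The test was checked on simulated counts with known changes. Of changes of 1 on the log2 scale it called 17% before transplant, 22% after it and 0% for the interaction. Of changes of 2 it called 61%, 80% and 35%. False calls made up 4.88%, 9.73% and 10.3% of the genes called, so the last 2 exceeded the threshold of 0.05. No 2 libraries of a group agreed within sampling noise.

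The members and lists were chosen with earlier results of these data known. All 9 members are named, together with up to 4 called genes of each list with the smallest adjusted p, and the 5 genes most like Foxp3, Gpr83 and Izumo1r by Pearson correlation of log2 CPM. Totals of 17103415 to 49486745 counts limit the precision of low genes such as Gpr83.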

Additional observations from a re-analysis of the deposited data

Results flagged for a closer look

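The interaction term of edgeR over all 12 libraries, the genotype difference after transplant less that before it, was past its threshold for 3 of the 9 Treg genes, beside 28.6% of all genes. The members were chosen with such values known, so this is a description and nothing about the members as a group is read from it. For Gpr83 the difference after transplant exceeded that before it by 6.49 on the log2 scale (SE 1.15), with the sign turned from lower to higher in TCF-1 cKO. For Nrp1 it was -2.20 (SE 0.60), with TCF-1 cKO higher before transplant (1.33) and lower after it (-0.86). Tested within a stage, Nrp1 was called at neither stage and Gpr83 was not called after transplant. Scaled to the CD3 genes the Nrp1 difference after transplant was -0.05, and per 1000 CD3 counts the genotypes overlapped there. For Capg it was -0.94 (SE 0.32), with TCF-1 cKO lower by more after transplant.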

How the results depend on the processing

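Among the 2 genotype comparisons, Izumo1r kept its direction under all 15 alternatives of each and was called under 15 before and 14 after transplant. Gpr83 before transplant was called under 14, and Capg after transplant under 11. Upper-quartile scaling left 3 of the other Treg genes called after transplant, against 9. Scaling to Cd3d, Cd3e and Cd3g moved the median log2 fold change of all genes from -0.11 to 0.84 before transplant and from 0.09 to 0.95 after it, from -0.41 to -1.93 for transplant in WT and from 0.36 to -1.21 in TCF-1 cKO. With it 5 members (3 higher, 2 lower) and 29 other Treg genes (29 higher) were called before transplant, and 7 other genes, all higher, after it. In TCF-1 cKO it left 3 members called for transplant, none of them higher, and the changes of Izumo1r and Nrp1 were -0.58 and -0.11, with the shift of all genes given above. DESeq2 called 4 members and 19 other genes after transplant, and voom called 14 other genes. On log2(TPM + 1), 1 member and 4 other genes were called after transplant and 3 members for transplant in WT. In 1 fit of all libraries 4 members and 14 other genes were called before transplant and 2 other genes after it. Apart from the left-out libraries and the replicate block below, the other alternatives stayed within 1.5 times these counts. The number of all genes called was 2413 before and 1283 after transplant, and ranged over all alternatives from 14 to 6628 and from 6 to 3777. Of all genes called, 1451 were higher and 962 lower before transplant, against 636 and 2070 with upper-quartile scaling, 6315 and 313 with CD3 scaling and 1363 and 531 on log2(TPM + 1). After it 679 were higher and 604 lower, against 687 and 111 with upper-quartile scaling, 3755 and 22 with CD3 scaling and 983 and 114 on log2(TPM + 1).

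Leaving out 1 library gave 1 to 3 members and 0 to 6 other genes before transplant (lowest without WT Pre-Tx replicate 1), and 0 to 3 members and 0 to 17 other genes after it (lowest without TCF-1 cKO Post-Tx replicate 2, highest without WT Post-Tx replicate 2). It gave 3 to 5 members for transplant in WT, 4 to 6 in TCF-1 cKO and 1 to 3 for the interaction. The cause of these moves was not tested.

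Same replicate numbers were not shown to pair the libraries. The correlation of deviations of same-numbered libraries was 0.019, -0.068 and 0.011 before and -0.00019, 0.25 and 0.11 after transplant. For libraries of different numbers it ran from -0.088 to 0.075 before and from -0.30 to 0.19 after transplant. Whether the numbers pair the Post-Tx libraries was not settled. With a replicate block, 2 members and 7 other genes were called before transplant, 3 members and 20 other genes after it, and 3 members for the interaction. A block across all libraries, chosen after seeing the data because a block within stage leaves no estimate of the transplant contrasts, gave 5 and 6 members.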

Other observations

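The genes around Gpr83 and Izumo1r on chromosome 9 were read after the values of the pair had been seen. Within 100000 bases on each side, 3 further genes passed the filter on low counts. Mre11a, a DNA repair nuclease, had a mean of 37.8 normalized CPM in TCF-1 cKO against 8.92 in WT before transplant, the opposite direction to the pair (log2 fold change 2.05 ± 0.44, edgeR adjusted p = 0.017), and at 30.0 and 40.8 after it (-0.43 ± 0.27). Ankrd49 differed by 1.14 ± 0.59 and -0.48 ± 0.39, and Panx1 by 0.09 ± 0.27 and -0.30 ± 0.24, and none of these passed the threshold.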
